A study of Mus musculus with 12 samples.

Results

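The 32 genes described here are those that mark astrocytes, the glial cells that fill the space between neurons, or serve their household tasks. They were picked by symbol for what they are known to do, with earlier results of these data known, and all 32 were found once each among the 54532 genes of the deposited table. RNA came from the lateral septum, a forebrain nucleus that takes part in emotion and pain. Bulk RNA sequencing covered 6 libraries from mice given CFA and 6 libraries from mice given saline, CFA being what pain studies commonly call complete Freund's adjuvant, an agent of lasting local inflammation. Both groups were wild type (WT) and labelled day 3, and the labels used here give no age, sex or injection site. Whether each library is a separate animal is not labelled. A p-value here therefore sets the group difference against the spread between libraries of a group, which may lie apart for technical reasons.

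Astrocytes take glutamate out of the synaptic cleft through sodium-driven transporters and turn it into glutamine, which neurons reuse. They join through gap junctions into networks, hold water channels and ion transporters at their end-feet on blood vessels, and store glycogen. In states of inflammation they can become reactive, a change marked by the filament protein gene Gfap. The 32 genes were sorted into 8 roles: glutamate uptake and glutamine synthesis, gap junctions, water, ion and end-foot membrane proteins, metabolism, metal and amino acid handling, receptors and signalling, transcription factors, and matrix and secreted proteins. In bulk tissue, fewer cells of a type and less RNA per cell cannot be told apart.

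Of the 32 astrocyte genes, none differed between CFA and saline past the threshold, an adjusted p of 0.05 over all 13345 genes tested by limma. Of all genes tested, 0.0300% passed (4 genes, 2 higher and 2 lower in CFA). The smallest adjusted p of the 32 was 0.308, that of Slc7a10. At an unadjusted p under 0.05 there were 3 of the 32 (9.38%), Slc7a10 with a negative and Gjb6 and F3 with a positive log2 fold change, beside 7.67% of all genes tested (3.11% higher and 4.56% lower in CFA). No gene of the 32 had groups that did not overlap, against 0.495% of all genes. Every log2 fold change is the CFA mean minus the saline mean of log2(FPKM + 1), where FPKM counts fragments relative to gene length and library depth.

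Of the 32 log2 fold changes, 26 were negative and 6 positive, with a median of -0.031. Over all genes tested, 52.0% were negative and the median was -0.0043. With a filter of 5 FPKM, which all of the 32 pass, the median over all genes was -0.014 and that of the 32 stayed at -0.031. The count of signs depended on the scaling: it was 14 negative and 18 positive after rescaling to TPM, and 16 and 16 after quantile normalization. TPM moved the median of the 32 to 0.0077 and that of all genes to 0.033. The largest difference of the 32 was -0.31, and for 28 genes the 95% interval lay within 0.3 on either side of 0. The other 4 were Slc7a10, Slc1a2, Sox9 and Dio2.

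The sequences just before the starts of the 3 genes with an unadjusted p under 0.05 are shown, as these genes have the smallest p of the 32, though 3 of 32 is close to the share over all genes. Each is 250 bases upstream of the start, from RefSeq's promoter table of build GRCm38.p6, written 5′ to 3′ on the gene's strand. Slc7a10 lies at chr7:35186135-35186384 (plus strand), Gjb6 at chr14:57133612-57133861 (minus strand) and F3 at chr3:121723287-121723536 (plus strand). Capitals mark matches, on either strand, to 6 short motifs.
Slc7a10: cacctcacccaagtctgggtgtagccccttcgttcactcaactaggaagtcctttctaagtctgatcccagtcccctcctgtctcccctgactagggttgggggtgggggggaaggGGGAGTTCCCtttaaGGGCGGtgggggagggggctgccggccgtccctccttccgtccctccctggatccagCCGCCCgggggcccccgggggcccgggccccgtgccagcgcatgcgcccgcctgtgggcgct
Gjb6: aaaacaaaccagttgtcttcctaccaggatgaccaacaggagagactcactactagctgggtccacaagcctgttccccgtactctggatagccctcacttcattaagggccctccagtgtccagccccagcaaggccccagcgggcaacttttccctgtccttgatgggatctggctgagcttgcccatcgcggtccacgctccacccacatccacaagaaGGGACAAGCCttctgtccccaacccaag
F3: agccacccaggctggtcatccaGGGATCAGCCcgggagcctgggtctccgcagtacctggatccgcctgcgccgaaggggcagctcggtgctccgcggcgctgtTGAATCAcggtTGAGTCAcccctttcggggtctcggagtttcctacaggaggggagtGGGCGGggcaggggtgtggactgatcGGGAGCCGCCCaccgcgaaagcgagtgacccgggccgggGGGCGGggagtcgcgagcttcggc

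The motifs searched were TTGGC (nuclear factor I half-site), ACAAT (SOX site), AGAACA (glucocorticoid receptor half-site), GGGCGG (GC box), TGANTCA (AP-1 site) and an NF-kB site of GGGA, any 4 bases and CC. In these windows the nuclear factor I, SOX and glucocorticoid receptor motifs had no match. Slc7a10 held 2 GC boxes and an NF-kB match that reads on both strands. Gjb6 held 1 NF-kB match. F3 held 2 AP-1 matches, 3 GC boxes and 2 NF-kB matches, 1 of which overlaps a GC box. Of the 32 genes, 27 were searched, some with several windows. Windows of the 32 on chromosome 18, where Aqp4 lies, were left out, while the shares of all genes kept that chromosome. Counted per gene, with a match in any of its windows, 51.9% of the 27 held the GC box, beside 35.4% of all 27025 genes of the table, 29.6% the NF-kB letters (19.7% of all) and 7.41% the AP-1 letters (7.82%). The nuclear factor I half-site was in 44.4% (45.3% of all), the SOX site in 11.1% (30.9%) and the glucocorticoid receptor half-site in 18.5% (18.2%). A match to letters describes the window and shows no binding.

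All 32 genes were measured in every library, so astrocyte RNA was present throughout. The lowest value of any of the 32 in any library was 8.19 FPKM, and the fewest reads behind a value were 750, those of Cldn10. Mean levels over the 12 libraries spanned 120-fold, between 9.45 FPKM for Cldn10 and 1131 FPKM for Cpe. Cpe, Glul and Clu, the 3 highest, made up 48.3% of the summed level. That sum was 3534 to 4230 FPKM in CFA, with a median of 3898, and 3779 to 4138 FPKM in saline, with a median of 4019. As a share of the FPKM of all genes it was 1.39% to 1.53% in CFA and 1.36% to 1.53% in saline. The ranges of the groups overlapped on both scales.

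**Figure D1:**
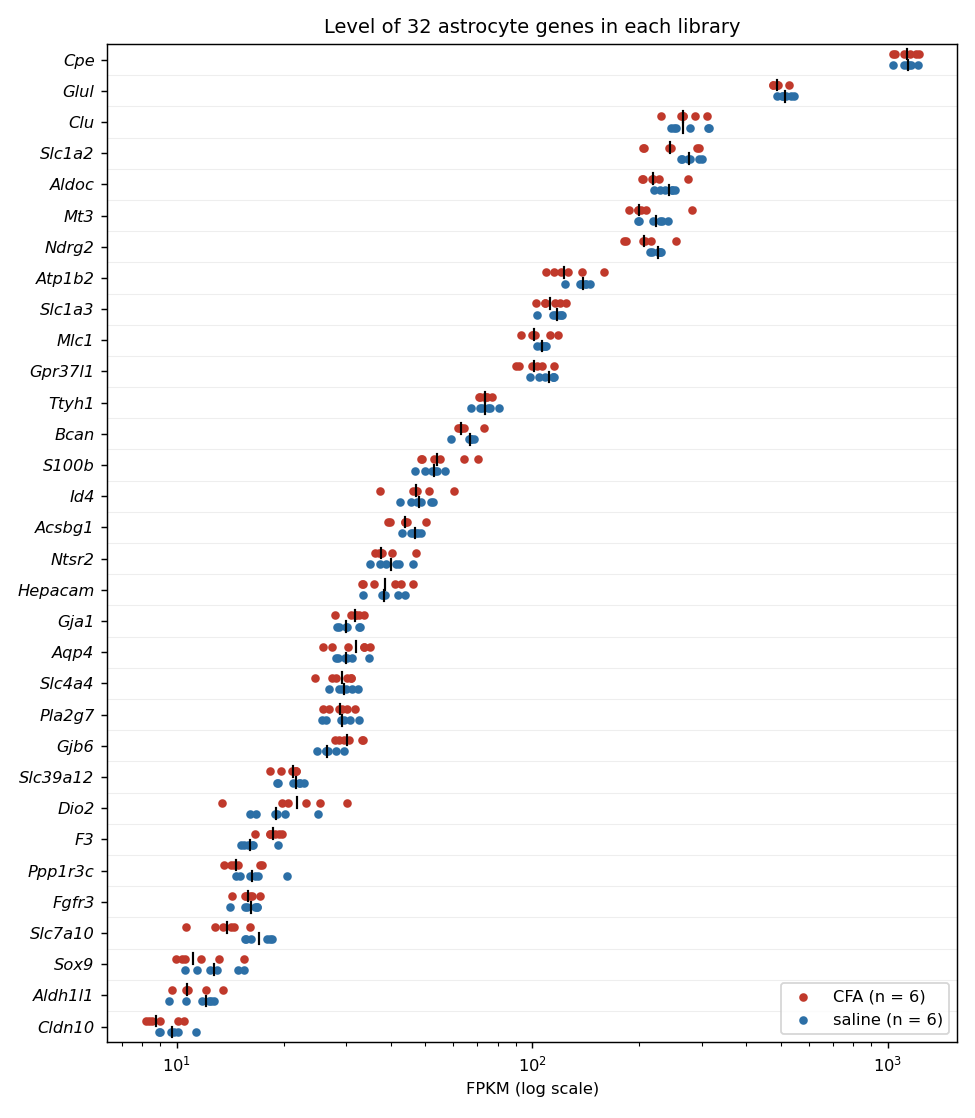
Level of each of the 32 astrocyte genes in FPKM on a log axis, 1 point per library, with CFA (red, n = 6) above saline (blue, n = 6) and a black tick at each group's median. The order from Cpe (1131 FPKM) to Cldn10 (9.45 FPKM) spans far more than the difference between groups in any gene.

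Depth was 35.5 M to 39.2 M recovered reads per CFA library and 33.6 M to 38.4 M per saline library. Xist, transcribed from the inactive X chromosome of females, was above 1 FPKM in 5 CFA and 2 saline libraries, an uneven split between the groups. Choroid plexus markers, 11 genes of which none was at 0, summed to 52.6 to 119 FPKM in CFA and 60.5 to 2734 FPKM in saline, where saline 3 and saline 5 stood apart with 2259 and 701 FPKM of Ttr, the main transcript of that tissue. Pan-neuronal markers, 16 genes, summed to 1833 to 2085 FPKM in CFA and 1917 to 2200 FPKM in saline, and all 16 had negative log2 fold changes. Oligodendrocyte markers, 11 genes, summed to 1281 to 3064 FPKM in CFA and 963 to 2514 FPKM in saline, and 10 of 11 had positive log2 fold changes (median 0.16). Striatal projection neuron markers, 10 genes, summed to 130 to 478 FPKM in CFA, highest in CFA 1, and 136 to 254 FPKM in saline, and all 10 were positive (median 0.46). Of 8 ependymal markers tested 7 were positive (median 0.14). Genes known to be strong in the septum, Zic1 and Trpc4, were measured in every library, Zic1 at 75.4 to 132 FPKM in CFA and 82.5 to 116 FPKM in saline. Crhr2, a further septum marker, was low, with medians of 2.87 FPKM in CFA and 3.54 FPKM in saline. The CFA mean over the saline mean was 0.933 for Zic1, 0.911 for Trpc4 and 0.854 for Crhr2. For each of these genes 5 of 6 CFA libraries lay below the saline median, and the groups overlapped. Slc17a7, the vesicular glutamate transporter of cortical neurons, was 4.70 to 78.7 FPKM in CFA and 2.38 to 69.7 FPKM in saline, highest in CFA 6, CFA 3 and saline 1, a wide range within each group. The part of these differences in the results was not tested. Some values and counts without certain libraries, or with Xist, Slc17a7, pan-neuronal or choroid plexus markers as a covariate, are given below. No fit used the oligodendrocyte, striatal, ependymal or septum markers as a covariate.

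The glutamate group holds the transporters that clear glutamate and the enzyme that uses it. Slc1a2 (chromosome 2, 102658659 to 102790784, plus strand) encodes GLT-1, the main glutamate transporter of the forebrain. Its levels in CFA ran from 205 to 294 FPKM with a median of 244, and in saline from 262 to 301 FPKM with a median of 277. CFA 4 and CFA 6, at 207 and 205 FPKM, were the lowest libraries, and 4 of 6 CFA libraries lay below every saline library, while CFA 1 and CFA 5, at 294 and 290 FPKM, lay within the saline range. The means were 247 ± 38.8 FPKM in CFA and 279 ± 15.9 FPKM in saline (SD, n = 6 each), a log2 fold change of -0.19 (SE 0.089, 95% interval -0.38 to 0.0065, limma adjusted p = 0.663). With the pan-neuronal mean as a covariate the value was -0.28 (adjusted p = 0.507), the largest in size over the alternatives. It was -0.14 without CFA 4 (adjusted p = 0.499) and -0.13 without CFA 6 (adjusted p = 0.836), the smallest in size.

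Glul, the glutamine synthetase that turns glutamate and ammonia into glutamine, also made by oligodendrocytes, varied little. It was 474 to 528 FPKM in CFA (median 488) and 487 to 546 FPKM in saline (median 514), with groups that overlapped (log2 fold change -0.072, limma adjusted p = 0.740). Slc1a3, which encodes the second astrocyte transporter GLAST, averaged 113 ± 8.11 FPKM in CFA and 116 ± 6.61 FPKM in saline (SD, n = 6 each; -0.031, adjusted p = 0.937). The ratio of Slc1a2 to Slc1a3, a description chosen after the values were seen, was 1.79 to 2.68 in CFA and 2.18 to 2.84 in saline, and 3 of 6 CFA libraries lay below the lowest saline ratio.

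Both gap junction genes had positive log2 fold changes. Gjb6 (chromosome 14, 57123303 to 57133611, minus strand), which encodes connexin 30, was 27.8 to 33.3 FPKM in CFA with a median of 30.1, and 24.9 to 29.6 FPKM in saline with a median of 26.5. All 6 CFA libraries were above the saline median, and 3 were above every saline library. The means were 30.6 ± 2.33 FPKM in CFA and 27.0 ± 1.64 FPKM in saline (SD, n = 6 each), a log2 fold change of 0.17 (SE 0.055, 95% interval 0.055 to 0.29, limma adjusted p = 0.401). Gja1, which encodes connexin 43, the more widespread astrocyte connexin, was 28.0 to 33.6 FPKM in CFA (median 31.8) and 28.2 to 32.7 FPKM in saline (median 30.0). These ranges overlapped almost wholly (0.050, limma adjusted p = 0.862). The ratio of Gjb6 to Gja1, also chosen after the values were seen, was 0.854 to 1.19 in CFA and 0.818 to 0.994 in saline, so the genes had about equal levels per length.

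**Figure D2:**
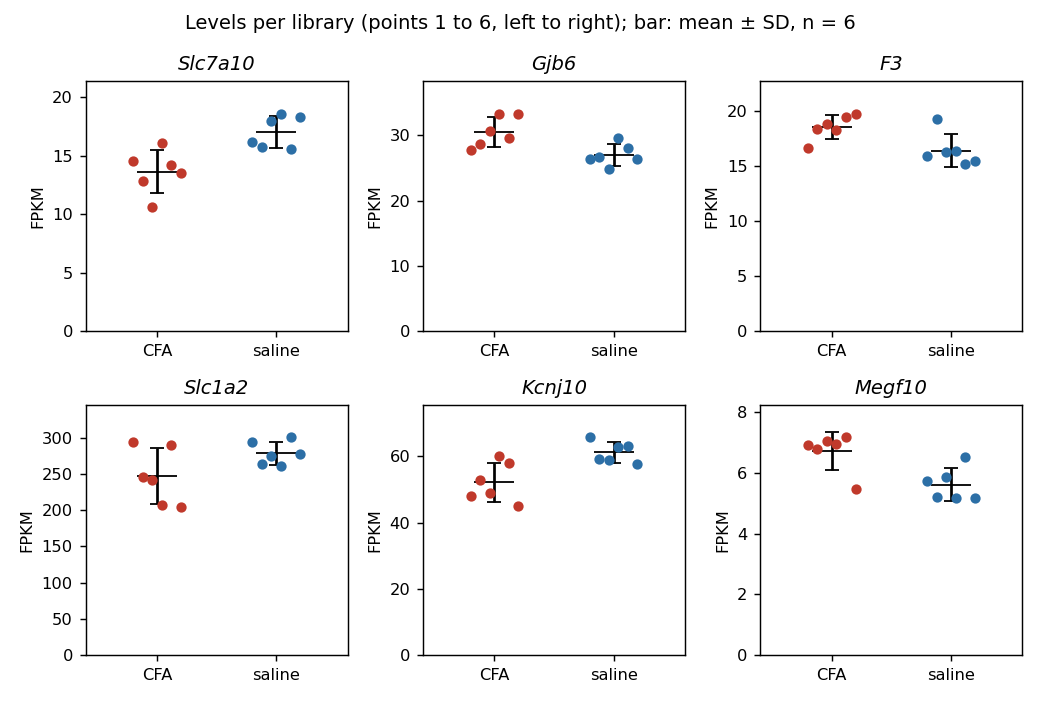
FPKM per library of Slc7a10, Gjb6, F3, Slc1a2, Kcnj10 and Megf10, with CFA (red) left of saline (blue), the 6 libraries of a group in number order and a bar for the mean ± SD. The CFA points of Slc7a10 (mean 13.6 FPKM) lie mostly below and those of Gjb6 (mean 30.6 FPKM) mostly above the saline points, and each pair of groups overlaps.

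Water, ion and end-foot membrane genes had 6 of 7 negative log2 fold changes and none past the threshold. Aqp4, the water channel of the end-feet, was the positive one at 0.021 (95% interval -0.14 to 0.18), with 31.0 ± 3.72 FPKM in CFA and 30.4 ± 2.39 FPKM in saline (SD, n = 6 each). Atp1b2, the beta subunit of the glial sodium pump and the gene of this role with the highest level, was 109 to 160 FPKM in CFA (median 123) and 124 to 145 FPKM in saline (median 139). CFA 4 held the highest and CFA 6 the lowest of its 12 values, with the saline libraries between them (-0.11, limma adjusted p = 0.779). Cldn10, a claudin that forms ion-selective pores, was 8.19 to 10.5 FPKM in CFA (median 8.75) and 8.95 to 11.3 FPKM in saline (median 9.72), and 3 of 6 CFA libraries lay below every saline library (-0.097, limma adjusted p = 0.779). Mlc1 and Hepacam encode partner membrane proteins of the end-feet whose human forms are mutated in a leukodystrophy, Slc4a4 a bicarbonate cotransporter and Ttyh1 a membrane protein of the tweety family. Their log2 fold changes lay between -0.052 (Slc4a4) and -0.0038 (Ttyh1).

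Among metabolic genes 5 of 6 log2 fold changes were negative. Aldoc, the brain aldolase of glycolysis and the highest of this role, was 204 to 275 FPKM in CFA (median 218) and 220 to 252 FPKM in saline (median 242). In 4 of 6 CFA libraries it was below every saline library, while CFA 4 was above them all (-0.093, limma adjusted p = 0.787). Acsbg1, an acyl-CoA synthetase, was 39.2 to 50.3 FPKM in CFA (median 43.9) and 43.0 to 48.8 FPKM in saline (median 46.7), again with CFA 4 highest and CFA 6 lowest (-0.093, limma adjusted p = 0.759). Aldh1l1, the folate enzyme often used to label astrocytes, averaged 11.2 ± 1.35 FPKM in CFA and 11.6 ± 1.25 FPKM in saline (SD, n = 6 each; -0.042). Dio2, the deiodinase that activates thyroid hormone, had the widest spread of the 32, with a coefficient of variation of 25.6% in CFA and 16.3% in saline. It was highest in CFA 3 at 30.2 FPKM and lowest in CFA 4 at 13.4 FPKM (0.16, 95% interval -0.18 to 0.49). The Dio2 value was -0.026 over the libraries with Xist, 0.063 without CFA 3 and 0.29 without CFA 4. Ppp1r3c, which targets a phosphatase to glycogen, and Pla2g7, a secreted phospholipase, had -0.11 and -0.012.

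Slc7a10 (chromosome 7, 35186385 to 35201114, plus strand) had the smallest p of the 32. It encodes Asc-1, a sodium-independent exchanger of small neutral amino acids such as serine and glycine, and has been reported in neurons too. Its levels were 10.7 to 16.1 FPKM in CFA with a median of 13.9, and 15.6 to 18.6 FPKM in saline with a median of 17.1. In 5 of 6 CFA libraries Slc7a10 was below every saline library, while CFA 4 lay inside the saline range, and CFA 3 was the lowest of all. The means were 13.6 ± 1.83 FPKM in CFA and 17.05 ± 1.38 FPKM in saline (SD, n = 6 each), a log2 fold change of -0.31 (SE 0.082, 95% interval -0.48 to -0.13, limma adjusted p = 0.308). Over the libraries with Xist the value was -0.13 (adjusted p = 0.999), and without CFA 4 it was -0.35 (adjusted p = 0.110). Slc7a10 overlaps the antisense gene Lrp3, which averaged 19.95 FPKM in CFA and 21.4 FPKM in saline (-0.10, limma adjusted p = 0.738). Since strand use in counting is not given, reads of the overlap cannot be told apart, and the same holds for S100b with Dip2a and for Ttyh1 with 9430041J12Rik and D030047H15Rik.

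The other genes of metal and amino acid handling stood closer to 0. Mt3, a metallothionein that binds zinc and copper, was 188 to 281 FPKM in CFA (median 200) and 199 to 241 FPKM in saline (median 223). The 281 FPKM of CFA 4 lay far above the next CFA library at 209 FPKM (log2 fold change -0.056, limma adjusted p = 0.931). Slc39a12, a zinc transporter, had -0.030.

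Receptor and signalling genes were split, 4 negative and 2 positive. F3 (chromosome 3, 121723537 to 121735048, plus strand), which encodes tissue factor, the starter of blood clotting, had 16.6 to 19.8 FPKM in CFA with a median of 18.6, and 15.2 to 19.3 FPKM in saline with a median of 16.1. All 6 CFA libraries were above the saline median, and saline 2 at 19.3 FPKM stood above the other saline libraries, which reached 16.3 FPKM. The means were 18.6 ± 1.11 FPKM in CFA and 16.4 ± 1.48 FPKM in saline (SD, n = 6 each), a log2 fold change of 0.17 (SE 0.058, 95% interval 0.045 to 0.29, limma adjusted p = 0.453). Over the libraries with Xist the F3 value was 0.10 (adjusted p = 0.999).

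Ndrg2, a stress-responsive protein of astrocytes and the highest of this role, was 181 to 253 FPKM in CFA (median 206) and 215 to 231 FPKM in saline (median 227). Its saline values were tight, and 4 of 6 CFA libraries lay below them all while CFA 4 lay above (-0.12, limma adjusted p = 0.744). Gpr37l1, an orphan receptor of glia, was 90.1 to 115 FPKM in CFA (median 101) and 98.8 to 115 FPKM in saline (median 112), with 5 of 6 CFA libraries below the saline median (-0.12, limma adjusted p = 0.709). The calcium-binding protein gene S100b had 0.11, the neurotensin receptor gene Ntsr2 -0.029 and the growth factor receptor gene Fgfr3 -0.0082, each with an interval across 0.

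Of the transcription factor genes, Sox9, needed for the switch of progenitors to glia, was 9.95 to 15.4 FPKM in CFA (median 11.1) and 10.6 to 15.5 FPKM in saline (median 12.7). Its highest saline values were those of saline 3 and saline 5, at 15.5 and 14.9 FPKM, the libraries with much choroid plexus transcript. The log2 fold change of Sox9 was -0.12 over all libraries (limma adjusted p = 0.842) and -0.0096 without these 2 (0.993). With the choroid plexus mean as a covariate it was -0.044 (limma adjusted p = 0.963). It was larger in size with the pan-neuronal mean as a covariate, at -0.33 (adjusted p = 0.269), with Xist as a covariate, at -0.22 (0.856), and without CFA 1, at -0.20 (0.757). Id4, an inhibitor of helix-loop-helix factors, was 37.4 to 60.4 FPKM in CFA (median 47.2) and 42.6 to 52.5 FPKM in saline (median 48.0), with both extremes in CFA (-0.0051).

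The 3 matrix and secreted protein genes had log2 fold changes between -0.029 and -0.0056. Cpe, carboxypeptidase E, which neurons also use to process peptides, was 1034 to 1223 FPKM in CFA (median 1133) and 1032 to 1217 FPKM in saline (median 1139), a log2 fold change of -0.0056 (95% interval -0.13 to 0.12, limma adjusted p = 0.987). Bcan, the proteoglycan brevican, was 61.7 to 73.0 FPKM in CFA (median 63.0) and 58.9 to 68.7 FPKM in saline (median 67.1), a value of -0.029 (limma adjusted p = 0.936). Clu, the secreted chaperone clusterin, reached 311 and 314 FPKM in saline 3 and saline 5, and its value was -0.026 over all libraries. Without these 2 libraries it was 0.068, and with the choroid plexus mean as a covariate 0.058. It was -0.13 over the libraries with Xist, -0.090 with the pan-neuronal covariate and -0.075 with the Xist covariate, so its sign depended on the setting.

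**Figure D3:**
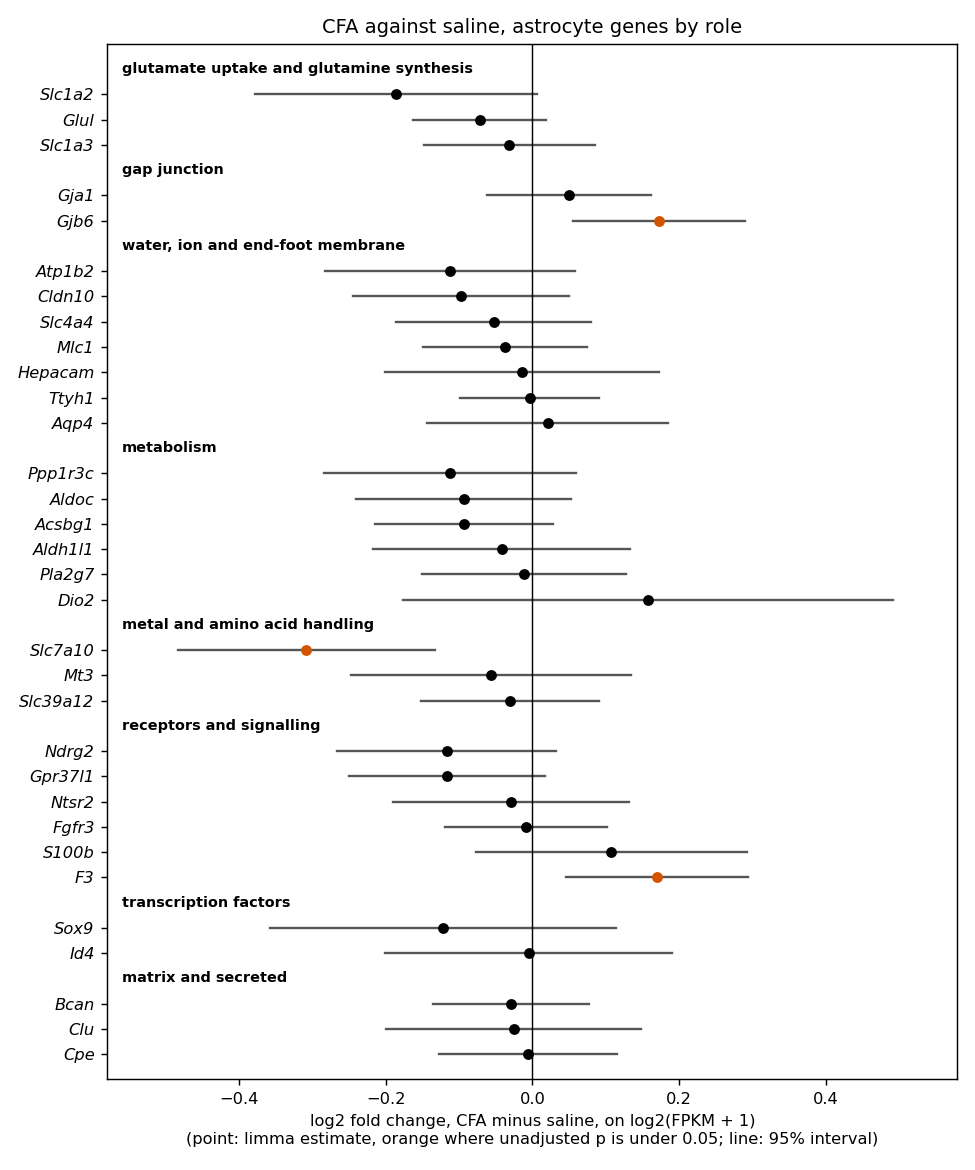
Log2 fold change of each of the 32 astrocyte genes, CFA minus saline on log2(FPKM + 1), grouped by role, with the limma 95% interval as a line. Only Slc7a10 (-0.31), Gjb6 (0.17) and F3 (0.17), in orange, have intervals that leave out 0, and none of the 32 passed after adjustment over all genes.

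The median coefficient of variation of the 32 genes was 10.2% in CFA and 6.68% in saline, and it was higher in CFA for 23 genes (71.9%). Over all genes tested the medians were 10.9% in CFA and 8.08% in saline, and 71.3% of genes were higher in CFA, close to the share of the 32. A pair of CFA libraries lay at opposite ends. CFA 4 had the highest value of all 12 libraries in 13 of the 32 genes, Mt3, S100b, Aldoc, Atp1b2 and Ndrg2 among them, and the lowest in 4, namely Dio2, Id4, Ppp1r3c and Cldn10. CFA 6 had the lowest value in 14 genes, Slc1a2, Aqp4, Slc4a4 and Ndrg2 among them, and the highest in 2, Gjb6 and F3. Next came saline 5, the highest in 5 genes, and saline 3, the lowest in 5. The median deviation of the 32 genes from the middle of the 12 libraries of log2(FPKM + 1) was 0.083 in CFA 4 and -0.16 in CFA 6. Slc17a7 was 5.22 FPKM in CFA 4 and 78.7 FPKM in CFA 6, and its part in these profiles was not tested. The sum over all genes was 276203 FPKM in CFA 4 and 254289 FPKM in CFA 6. Among CFA libraries, summed choroid plexus, oligodendrocyte precursor and further astrocyte homeostasis markers were also highest in CFA 4 and lowest in CFA 6. Reactive astrocyte and pan-neuronal sums were highest in CFA 4, and ependymal and endothelial sums lowest in CFA 6. Microglia, oligodendrocyte and striatal sums had neither. Shares over all genes of such extremes were not counted.

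**Figure D4:**
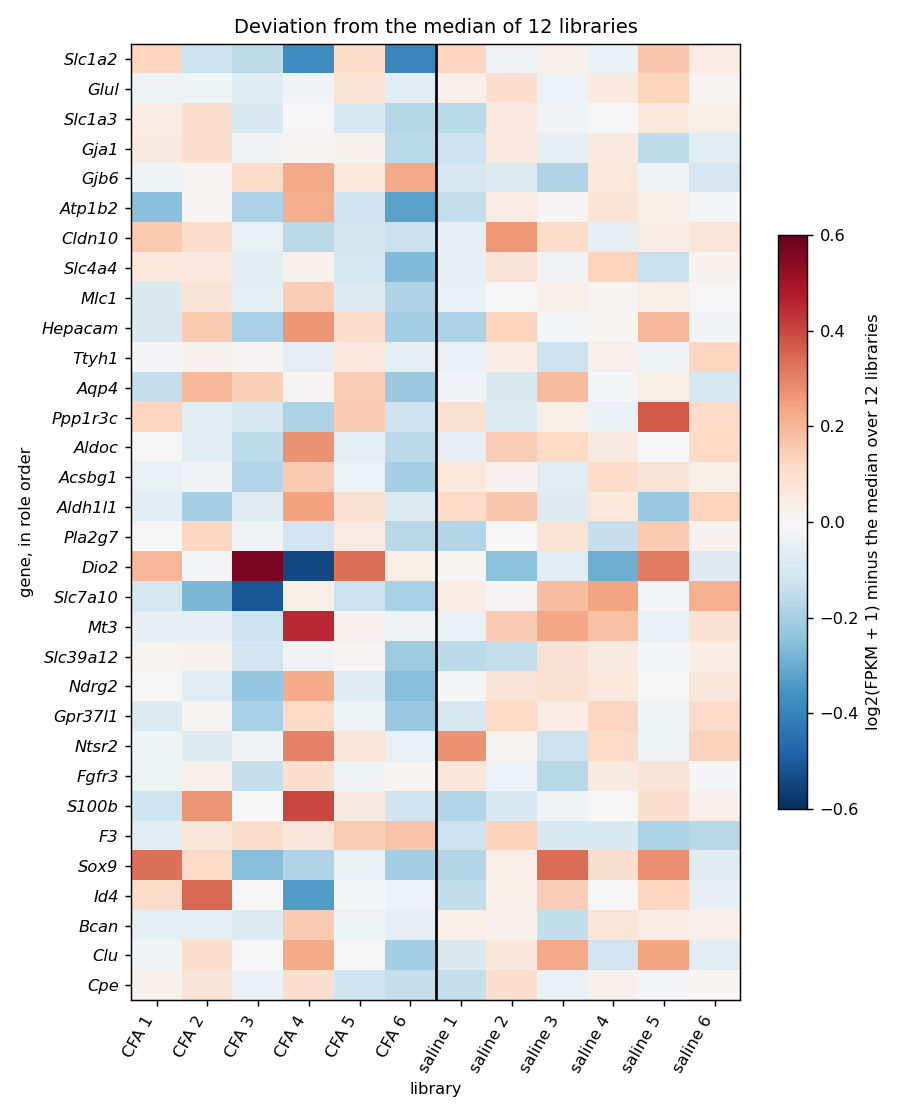
Deviation of each of the 32 astrocyte genes (rows, in role order) in each library (columns, CFA left of saline) from its median over the 12 libraries, in log2(FPKM + 1), red above and blue below. The column of CFA 4 is mostly red (median 0.083) but blue for Dio2, Slc1a2 and Id4, and the column of CFA 6 is mostly blue (median -0.16).

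Single libraries moved the counts. Without CFA 4, 10 of the 32 genes (31.2%) had an unadjusted p under 0.05, beside 13.8% of all genes tested. These were Slc7a10, Gpr37l1, Ndrg2, Aldoc, Acsbg1, Atp1b2 and Mt3 with negative values, and Gjb6, F3 and Dio2 with positive ones, and the smallest adjusted p was 0.110. Without CFA 5 there were 5 (15.6%, beside 6.53% of all genes). With the pan-neuronal mean as a covariate there were 7 (21.9%, beside 6.50% of all genes), Sox9 with the smallest adjusted p of 0.269. With Slc17a7 as a covariate, a setting added after the data were seen, there were 6 (18.8%, beside 8.80% of all genes). Over the libraries with Xist alone there was none, beside 3.20% of all genes, from 5 CFA and 2 saline libraries. Without CFA 6, 19 of the 32 log2 fold changes were negative, with a median of -0.011. Over the alternatives Mt3 ran from -0.14 to 0.018, Glul from -0.13 to 0.024 and Cldn10 from -0.18 to -0.058. Atp1b2 ran from -0.18 to -0.068, Ndrg2 from -0.18 to -0.065 and Aldoc from -0.15 to -0.044. No gene of the 32 passed the threshold under any of the 28 alternatives.

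A second list of 50 astrocyte genes with similar tasks, none of them among the 32, was set beside them. Of 49 tested, 33 (67.3%) had negative and 16 positive log2 fold changes, with a median of -0.048, beside 52.0% negative over all genes. None passed by limma, and 6 (12.2%) had an unadjusted p under 0.05, 3 in each direction, beside 7.67% of all genes. Whether this list differs from the 32 was not tested. Signs of this list and of the marker lists were counted on FPKM alone, and the sign count of the 32 depended on the scaling. Kcnj10, the potassium channel Kir4.1 that takes up potassium released by neurons, was 45.1 to 60.1 FPKM in CFA, with all 6 libraries below the saline median, and averaged 52.1 ± 5.89 FPKM in CFA and 61.2 ± 3.14 FPKM in saline (SD, n = 6 each; -0.23, limma adjusted p = 0.360). The engulfment receptor genes Megf10 and Mertk had 0.22 and 0.16 (limma adjusted p = 0.391 and 0.530), and Mertk had 0.077 without saline 3 and saline 5.

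Of 29 reactive astrocyte genes, 14 reached the expression filter, and the other 15, among them Lcn2, C3 and Timp1, were not tested. The 14 had 12 positive and 2 negative log2 fold changes with a median of 0.088, where 52.0% of all genes were negative. None passed by limma, and 3 (21.4%) had an unadjusted p under 0.05, all positive, beside 3.11% of all genes in that direction. Fkbp5, a chaperone partner of the glucocorticoid receptor, averaged 8.52 ± 1.69 FPKM in CFA and 6.61 ± 0.544 FPKM in saline (SD, n = 6 each; 0.31, limma adjusted p = 0.436). Ggta1, a galactosyltransferase, and the transcription factor gene Stat3 had 0.20 and 0.11 (limma adjusted p = 0.453 and 0.578). Ggta1 lies near 1 FPKM, and its value was 0.34 with a pseudocount of 0.1 FPKM, 0.33 as TPM and 0.37 by voom. Gfap was 67.5 ± 14.8 FPKM in CFA and 56.5 ± 10.5 FPKM in saline (SD, n = 6 each; 0.24, limma adjusted p = 0.761), and the groups overlapped. The Gfap value was 0.040 over the libraries with Xist and 0.38 without saline 3 and saline 5.

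**Figure D5:**
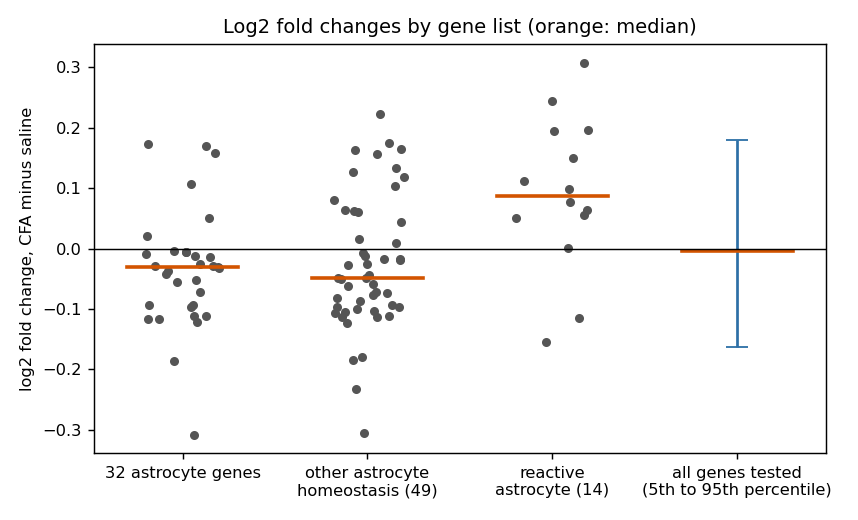
Log2 fold changes (CFA minus saline, 1 point per gene) of the 32 astrocyte genes, 49 other astrocyte homeostasis genes and 14 reactive astrocyte genes, with the median in orange, beside the range from the 5th to the 95th percentile of all genes tested in blue. Medians were -0.031, -0.048 and 0.088, beside -0.0043 for all genes.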

How the data were processed

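The authors deposited a table of FPKM for each gene and library that also holds gene lengths. RNA was extracted with Trizol and sequenced as paired ends on an Illumina NovaSeq, per the labels' protocols. HISAT2 2.0.5 and build mm10 are named, per the submitters' processing notes. Counting tool, strand setting and annotation were not given in the sources used here. FPKM multiplied by gene length came in whole steps (99.9% or more of values per library within 0.01 read of a whole number), which gave recovered reads for depth and for voom. Coordinates are those of the table, on GRCm38, counted from 1, and 30 of the 32 genes had those of GENCODE M21. A further 6 columns matched no sample and were not used.

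Groups came from the labels. Genes with at least 1 FPKM in at least 6 libraries were tested in R 4.3.3 by limma 3.58.1 with a mean-variance trend, two-sided, on log2(FPKM + 1), Benjamini-Hochberg over all 13345 genes, threshold 0.05. The astrocyte genes and lists were chosen with earlier results of these data known. All 32 passed the filter and are accounted for by role. Values per group went to the gene of each role with the highest mean and with the smallest p, the 8 smallest p, the 4 largest log2 fold changes, and 4 genes with the smallest p of each of 2 further astrocyte lists, of which 1 is not reported here; Slc1a3, Aqp4, Aldh1l1, Dio2 and Clu were given values as well, chosen after they were seen. No library was treated as a repeat deposit. Within the groups the closest pair, saline 4 and saline 6, had a chi-square over degrees of freedom of 8.42 between their reads. Pairs of a CFA and a saline library were not compared in this way. The fit was tested on simulated data. Alternatives covered pseudocount, filter, scaling, trend, voom, a replicate block, covariates and left-out libraries; Slc17a7 as a covariate was added after seeing the data. Figures were drawn with matplotlib 3.10.9 and tables made with pandas 2.3.3 under Python 3.11.15.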

Additional observations from a re-analysis of the deposited data

Results flagged for a closer look

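A library was marked when its gap to the nearest library of its group, over the group's range, passed Dixon's 95% critical value, which chance gives in about 1 of 20 groups. The rule was not run over all genes, so no share over all genes is given, and the groups share the same libraries. Of 64 groups (32 genes in CFA and in saline), 7 were marked. In 4 of them the library was CFA 4, the highest of its group: Mt3 at 281 FPKM (next 209), Aldoc at 275 FPKM (next 228), Bcan at 73.0 FPKM (next 64.3) and Ntsr2 at 47.3 FPKM (next 40.3). CFA 5 was highest for Glul at 528 FPKM (next 493). Saline 2 was highest for F3 at 19.3 FPKM (next 16.3), and saline 3 was lowest for Bcan at 58.9 FPKM (next 66.5).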

How the results depend on the processing

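Across 28 alternatives, no astrocyte gene passed the threshold; the lowest adjusted p was 0.110 (Slc7a10 without CFA 4). Of 896 recomputed log2 fold changes, 78 changed sign, in 17 genes; Slc7a10, Gjb6, F3 and Slc1a2 kept their signs. The median of the 32 was negative in 27 alternatives and 0.0077 as TPM. Over all genes, the count past the threshold was 4, and 5 by voom on recovered reads. It was 2 without a filter and 2 without a trend, 7 with the choroid plexus mean as a covariate, and 1 each with the pan-neuronal mean as a covariate, with Xist as a covariate and over the libraries with Xist alone. Leaving out 1 library gave 1 to 11: 10 without CFA 1, 1 without CFA 6, 2 without saline 2, 11 without saline 3, 2 without saline 4 and 1 without saline 5. The cause was not tested. Whether replicate numbers pair the samples is not settled, and the main fit did not pair them. Deviations of same-numbered libraries correlated at -0.012 to 0.16, over 0.1 in 2 of 6 pairs. Of the 6 CFA libraries, 3 matched their own number best. With the number as a block, 1 gene passed, none of the 32. In that fit 4 of the 32 (12.5%) had an unadjusted p under 0.05, beside 7.91% of all genes. The groups differ in Xist, and only 2 saline libraries hold it, so values over those libraries rest on few samples.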
